A study of Mus musculus with 7 samples.

Results

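Liver bile formation begins with carriers on the blood-facing (basolateral) membrane of the hepatocyte and ends with pumps on the canalicular membrane. In the livers of wild-type and Sprtn knock-in mice, 10 transporter genes were followed: 6 such uptake carriers, 3 such pumps and the prostaglandin transporter Slco2a1. They were picked by name from the 51826 genes of the deposited liver table, as Slco1a4 and its functional relatives. The choice was made with the genotype difference of these genes already known, so their difference between genotypes is described here without a test. Male C57BL/6J mice aged 6 months were used, untreated per the labels. They were either wild type (WT, n = 3) or homozygous for the Sprtn Y118C knock-in allele (KI, n = 4), and each library is 1 liver sample. The Sprtn protease cleaves proteins that have become trapped on DNA. Its mRNA stood at 9.15 to 11.3 CPM (counts scaled to library size) in WT and 10.3 to 12.2 CPM in KI, which does not check a point mutation. The labels do not say whether the mice shared a colony or litter, nor which lobe was sampled.

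Organic anions, bile salts, bilirubin, steroid conjugates and many drugs reach the hepatocyte through the Slco carriers (organic anion transporting polypeptides) and the sodium-dependent bile acid carrier Slc10a1, together with organic anion carriers of the Slc22 family. Pumps driven by ATP then move them into bile. In the mouse, Slco1a1 is known as male-predominant and Slco1a4 as female-predominant, and Slco1a4 is a known target of the xenobiotic receptor PXR. Reads come from whole tissue, so that fewer cells of a type and less RNA per cell cannot be told apart.

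The Slco1a genes are close copies of each other, which bears on how reads can be assigned. Slco1a4 (ENSMUSG00000030237, mm10 chromosome 6, 141805440 to 141856199, minus strand) and Slco1a1 (ENSMUSG00000041698, chromosome 6, 141907282 to 141946962, minus strand) shared 86.6% of 2013 aligned coding bases in GENCODE release M21. Slco1a4 shared 89.3% with Slco1a5 and 85.0% with Slco1a6, but 54.6% with Slco1b2. The first 90 coding bases are shown for the 4 Slco1a genes to let the degree of similarity be seen, with capitals where a gene differs from Slco1a4.
Slco1a4: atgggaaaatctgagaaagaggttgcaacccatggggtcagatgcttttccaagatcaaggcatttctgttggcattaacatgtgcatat
Slco1a1: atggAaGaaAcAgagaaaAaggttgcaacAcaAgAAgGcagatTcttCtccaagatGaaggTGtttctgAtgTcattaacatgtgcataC
Slco1a5: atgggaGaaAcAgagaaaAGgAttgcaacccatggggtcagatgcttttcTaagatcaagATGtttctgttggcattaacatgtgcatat
Slco1a6: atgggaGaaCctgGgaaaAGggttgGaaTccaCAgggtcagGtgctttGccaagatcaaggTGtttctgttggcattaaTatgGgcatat
In this stretch Slco1a1, Slco1a5 and Slco1a6 differed from Slco1a4 at 18, 10 and 15 of the 90 bases. Over whole transcripts, 1.61% of the 50-base windows of Slco1a4 and 1.64% of those of Slco1a1 were found unchanged in another gene's transcripts. At 100 bases these shares were 0.640% and 0.614%. Slco1a5 and Slco1a6 had 3 counts each over all 7 libraries together. The sources used here give neither the read length nor how reads that fit several genes were counted. Slco1a1 had on average 7.25 times the CPM (counts scaled to library size) of Slco1a4 in WT and 14.6 times in KI. Reads of Slco1a1 assigned to Slco1a4 would therefore weigh more than the reverse. The size of this uncertainty in the Slco1a counts was not measured.

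Slco1a4 was lower in the KI livers. It had 2250, 3254 and 3019 counts in the WT libraries and 1540, 1389, 1313 and 1599 counts in the KI libraries. After scaling, WT replicates 1 to 3 held 53.6, 81.2 and 62.8 CPM, and KI replicates 1 to 4 held 34.0, 36.4, 33.3 and 37.6 CPM. All 4 KI libraries lay below all 3 WT libraries, and the KI libraries lay close together, with a highest value 1.13 times the lowest against 1.52 times in WT. The means were 65.9 ± 14.1 CPM in WT (SD, n = 3) and 35.3 ± 2.05 CPM in KI (SD, n = 4). In the fit over all genes the log2 difference, KI minus WT, was -0.90 (standard error, SE, 0.13), a level 1.86-fold lower in KI. Without WT replicate 1, the WT library nearest to KI, the log2 difference came to -1.03 (SE 0.12).

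Slco1a1, the neighbouring paralog and a carrier of bile acids and sulfated steroids, did not follow Slco1a4. Its CPM was 521, 402 and 445 in WT replicates 1 to 3 and 476, 441, 520 and 626 in KI replicates 1 to 4. The ranges overlapped, and KI replicate 4 was the highest library. KI minus WT came to 0.18 on the log2 scale (SE 0.14). It was 0.07 without KI replicate 4, 0.09 without WT replicate 2 and 0.28 without WT replicate 1. Within each library, Slco1a1 was therefore more abundant relative to Slco1a4 in KI. The ratio of Slco1a1 to Slco1a4 in TPM (transcript counts scaled by gene length and library size) was 7.10, 3.61 and 5.18 in WT replicates 1 to 3 and 10.2, 8.83, 11.4 and 12.1 in KI replicates 1 to 4. Every KI ratio was above every WT ratio, with means of 5.30 ± 1.75 in WT (SD, n = 3) and 10.6 ± 1.45 in KI (SD, n = 4). This ratio contains the Slco1a4 values by which the genes were chosen and is given as a description.

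**Figure D1:**
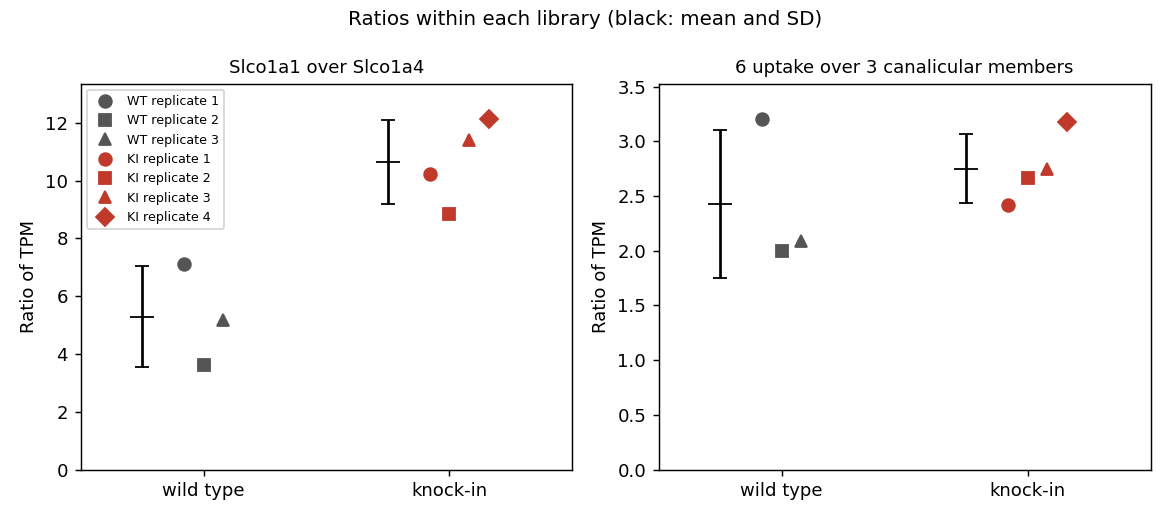
Ratio of deposited TPM within each library, for Slco1a1 over Slco1a4 (left) and for the summed 6 uptake carriers over the summed 3 canalicular pumps (right). Points are libraries, with a marker shape for each replicate number, and black marks show mean and SD. The KI livers lie between 8.83 and 12.1 on the left, above the WT livers at 3.61 to 7.10, while on the right the genotypes overlap.

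Because Slco1a1 and Slco1a4 are sex-biased in opposite directions in mouse liver, lists of other sex-biased genes were read beside them. The summed CPM of 13 male-predominant genes spanned 22719 to 32676 in WT and 19013 to 35825 in KI. The summed CPM of 16 female-predominant genes spanned 61.9 to 110.0 in WT and 22.2 to 62.4 in KI. Of the male-predominant genes 11 of 13 tested had positive differences, and of the female-predominant genes 5 of 9 tested. The female-predominant sum came mostly from Cyp17a1, Abcd2, Acot3, Fmo2, Cyp2a4 and Cyp2b9. Sult2a1, Sult3a1 and Hao2 reached at most 0.165 CPM in any of the 7 libraries. Cyp3a41a reached 0.574 CPM in KI replicate 1, and Cyp2b13 and Cyp2b9 reached 1.74 and 14.8 CPM in KI replicate 4. The part of this list in the Slco1a4 difference was not tested.

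Slco1b2 (ENSMUSG00000030236, chromosome 6, 141629518 to 141686646, plus strand) is the main sodium-independent carrier of bilirubin and unconjugated bile acids in mouse hepatocytes. Its CPM was 1363, 676 and 744 in WT replicates 1 to 3 and 1247, 1078, 1154 and 1178 in KI replicates 1 to 4. WT replicate 1 was the highest of all libraries, while the other WT libraries were the lowest, so the groups overlapped. KI minus WT came to 0.33 on the log2 scale (SE 0.23), or 0.71 (SE 0.11) without WT replicate 1. It was 0.14 without WT replicate 2 and 0.19 without WT replicate 3. In TPM the 4 KI libraries stood between 455 and 467, a spread of 1.03-fold, against 1.87-fold in WT.

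Slc10a1 (ENSMUSG00000021135, chromosome 12, 80953183 to 80968705, minus strand), the sodium-dependent carrier of conjugated bile acids, also differed among the WT libraries. Its CPM was 502, 348 and 326 in WT replicates 1 to 3 and 387, 489, 482 and 531 in KI replicates 1 to 4. WT replicate 1 lay inside the KI range and the other WT libraries lay below it. KI minus WT came to 0.27 on the log2 scale (SE 0.17), or 0.49 (SE 0.14) without WT replicate 1. It was 0.15 without WT replicate 3.

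Slc22a7 (ENSMUSG00000067144, chromosome 17, 46432185 to 46438477, minus strand), organic anion transporter 2, varied most among the WT livers in relative terms. It had 746, 217 and 337 counts in WT replicates 1 to 3 and 1312, 766, 931 and 845 counts in KI replicates 1 to 4, or 17.8, 5.42 and 7.01 CPM in WT and 29.0, 20.1, 23.6 and 19.9 CPM in KI. All KI libraries were above all WT libraries, but WT replicate 1 was close to the KI range and 2.86 times the mean of the other WT libraries. KI minus WT came to 1.20 on the log2 scale (SE 0.37), or 1.89 (SE 0.20) without WT replicate 1. It was 0.90 without WT replicate 2.

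Genes that mark the ends of the liver lobule differed among the WT livers in the same libraries. The summed CPM of 14 pericentral markers, expressed around the central vein, was 12325 in WT replicate 1 and 6868 and 6993 in WT replicates 2 and 3, against 10617 to 11985 in KI. All 14 had positive differences between genotypes, and 13 were higher in WT replicate 1 than in both other WT libraries. The summed CPM of 14 periportal markers was 12358, 15227 and 11859 in WT replicates 1 to 3 and 8536 to 11135 in KI, with all 14 differences negative. This sum did not set WT replicate 1 apart, and Pck1 alone had 3637, 3632 and 1014 CPM in WT replicates 1 to 3. Gene by gene, 10 of the 14 were lower in WT replicate 1 than in both other WT libraries, and 3 were higher. Glul, the glutamine synthetase of the last pericentral cell layer, had 947, 567 and 494 CPM in WT replicates 1 to 3 and 1006 to 1168 CPM in KI. Slco1b2 and Slc22a7 were lowest in WT replicates 2 and 3, where the pericentral sum was lowest. WT replicate 1 had the highest pericentral sum, yet its Slc22a7 level was below that of every KI library. Slco1a4 was lowest in KI and, among WT, in replicate 1. The part of lobular position or sampling in the transporter values was not tested.

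**Figure D2:**
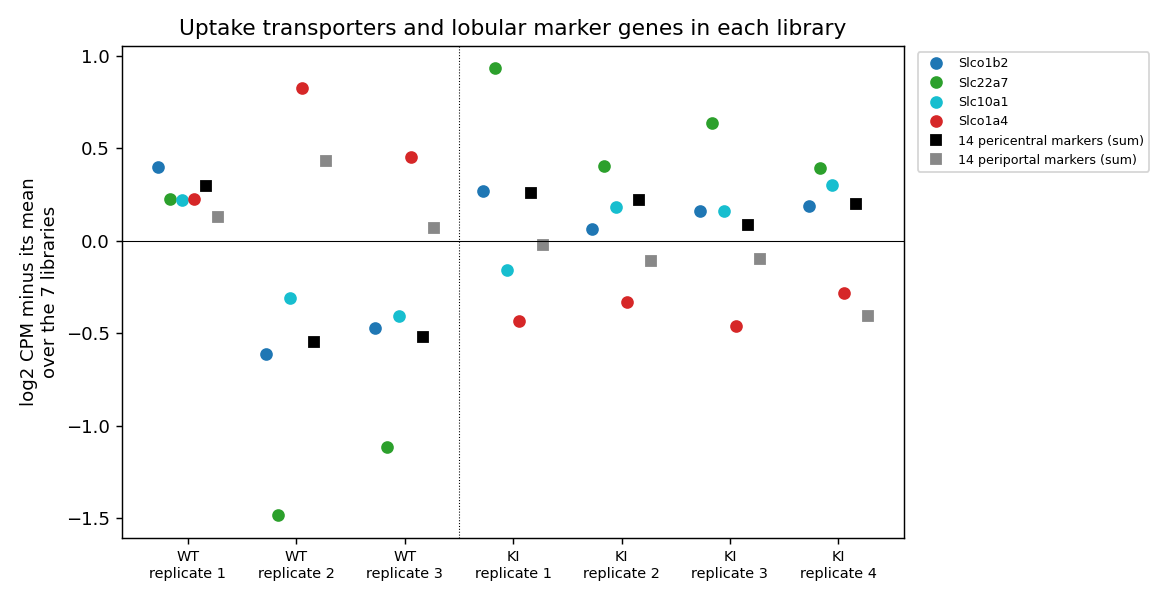
log2 CPM of 4 uptake carriers and of the summed lobular marker lists after subtracting the 7-library mean of each, by library (x axis, WT left and KI right of the dotted line). In WT replicates 2 and 3 Slco1b2, Slc22a7, Slc10a1 and the pericentral sum are below their means and Slco1a4 is above. In WT replicate 1 all 4 carriers, Slco1a4 included, and the pericentral sum are above their means.

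Slco2b1 (ENSMUSG00000030737, chromosome 7, 99657804 to 99711340, minus strand), a carrier of steroid sulfates, was nearly level. It had 147, 137 and 147 CPM in WT replicates 1 to 3 and 133, 142, 136 and 164 CPM in KI replicates 1 to 4. The ranges overlapped and the log2 difference came to 0.0050 (SE 0.09), with values from -0.06 without KI replicate 4 to 0.04 without KI replicate 1. Of its exonic bases 9.21% overlap genes on the opposite strand, Gm15635 and Gm34280, and the library preparation as described does not keep strand.

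Slco2a1 (ENSMUSG00000032548, chromosome 9, 102988712 to 103096002, plus strand), the prostaglandin transporter, was lower in KI. Its CPM was 79.3, 83.0 and 87.0 in WT replicates 1 to 3 and 68.5, 60.1, 66.9 and 50.5 in KI replicates 1 to 4, with no overlap. KI minus WT came to -0.43 on the log2 scale (SE 0.11), a 1.35-fold lower level. Of the 12 sinusoidal endothelial markers 7 had positive differences, and their summed CPM was 379 to 440 in WT and 356 to 477 in KI. For the 12 Kupffer cell and macrophage markers the sum was 418 to 538 CPM in WT and 324 to 427 CPM in KI, with all 12 differences negative and 1 of them, Timd4, called lower by edgeR, which called 0.0357% of all genes and 0.00715% as lower. The part of these cells in the Slco2a1 and Slco1a4 values was not tested.

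The canalicular pumps showed overlapping ranges in all 3 genes. Abcb11 (ENSMUSG00000027048, chromosome 2, 69238282 to 69342616, minus strand), the bile salt export pump, had 516, 610 and 684 CPM in WT replicates 1 to 3 and 655, 474, 586 and 628 CPM in KI replicates 1 to 4. KI replicate 2 was the lowest and WT replicate 3 the highest, and the log2 difference came to -0.04 (SE 0.14), with values from -0.14 without WT replicate 1 to 0.06 without WT replicate 3. Abcb4 (ENSMUSG00000042476, chromosome 5, 8893717 to 8959231, plus strand), which moves phosphatidylcholine into bile, had 215, 221 and 191 CPM in WT replicates 1 to 3 and 270, 335, 271 and 202 CPM in KI replicates 1 to 4. In KI, 3 of its libraries were above WT and replicate 4 was within it, with a log2 difference of 0.37 and an SE of 0.16. Abcc2 (ENSMUSG00000025194, chromosome 19, 43782192 to 43840740, plus strand), the pump for conjugated bilirubin and glutathione conjugates, had 560, 453 and 336 CPM in WT replicates 1 to 3 and 508, 540, 480 and 399 CPM in KI replicates 1 to 4. WT replicates 1 and 3 bounded the KI range on both sides, and the log2 difference came to 0.10 (SE 0.18), with values from -0.07 without WT replicate 3 to 0.29 without WT replicate 1.

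**Figure D3:**
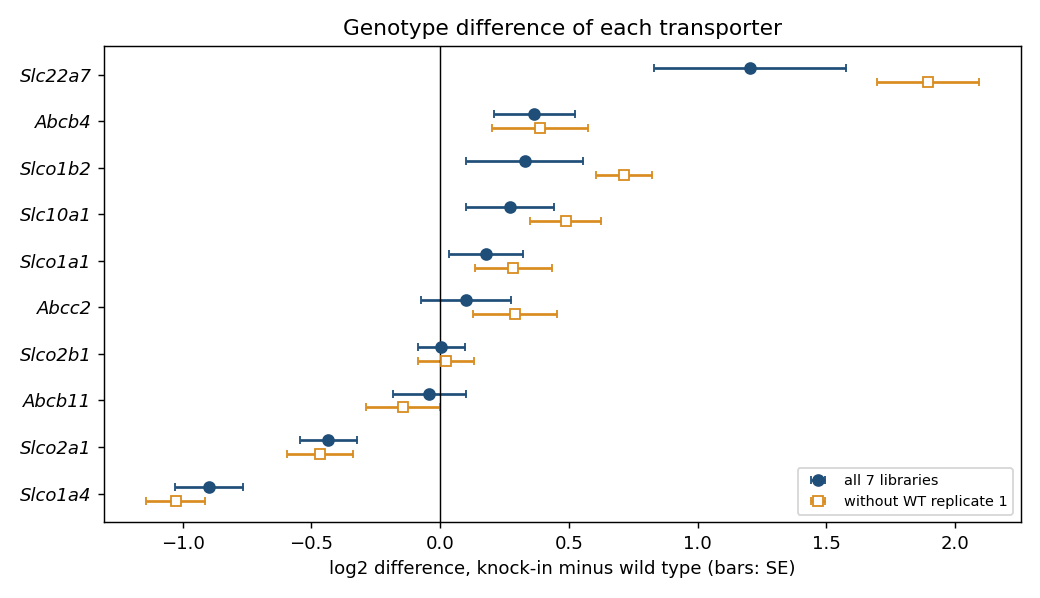
log2 difference (KI minus WT, x axis) of each of the 10 transporters from the fit over all genes, with all 7 libraries (filled) and without WT replicate 1 (open); bars are SE. Slco1a4 is at -0.90 and -1.03, Slco2a1 is also below 0, and Slc22a7 and Slco1b2 shift upward when WT replicate 1 is left out.

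Counted together, 3 of the 10 transporters had KI and WT ranges that did not overlap, Slco1a4 and Slco2a1 lower and Slc22a7 higher. Of the 13989 genes tested 10.9% had such ranges, 5.48% higher and 5.46% lower in KI. Without WT replicate 1 the count was 5, with Slco1b2 and Slc10a1 also higher in KI, against 26.1% of all genes. All 10 transporters passed the filter on low counts, with 217 to 57243 counts per library. Their log2 differences were positive in 7 and negative in 3, with a median of 0.14 against 0.00 for all genes tested. Since the genes were chosen with these differences known, nothing is read from the counts.

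Levels per length placed the bile acid and bilirubin carriers at the top. In WT, Slco1b2 had 368 ± 128 TPM and Slc10a1 350 ± 64.2 TPM (SD, n = 3), and their ranges overlapped. Abcb11 followed at 234 ± 45.8, Slco1a1 at 171 ± 16.4, Abcc2 at 103 ± 20.1, Abcb4 at 71.3 ± 4.36, Slco2b1 at 47.7 ± 3.30 and Slco1a4 at 34.0 ± 8.17 TPM, each with a range apart from its neighbours. Slco2a1 at 16.0 ± 1.66 TPM and Slc22a7 at 9.72 ± 5.91 TPM came last and overlapped. In KI, Slco1b2 and Slc10a1 again led, at 461 ± 6.04 and 421 ± 67.4 TPM (SD, n = 4), and Slc22a7, at 22.4 ± 3.16 TPM, stood above Slco1a4, at 18.0 ± 1.67 TPM. The ranges of that last pair overlapped, as did those of Slco1b2 with Slc10a1, of Abcb11 with Slco1a1 and of Abcc2 with Abcb4. Slco1a4 made up 2.14%, 5.04% and 3.81% of the summed TPM of the 6 uptake carriers in WT replicates 1 to 3 and 1.45% to 1.67% in KI, while Slc22a7 made up 0.645% to 1.36% in WT and 1.53% to 2.56% in KI.

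**Figure D4:**
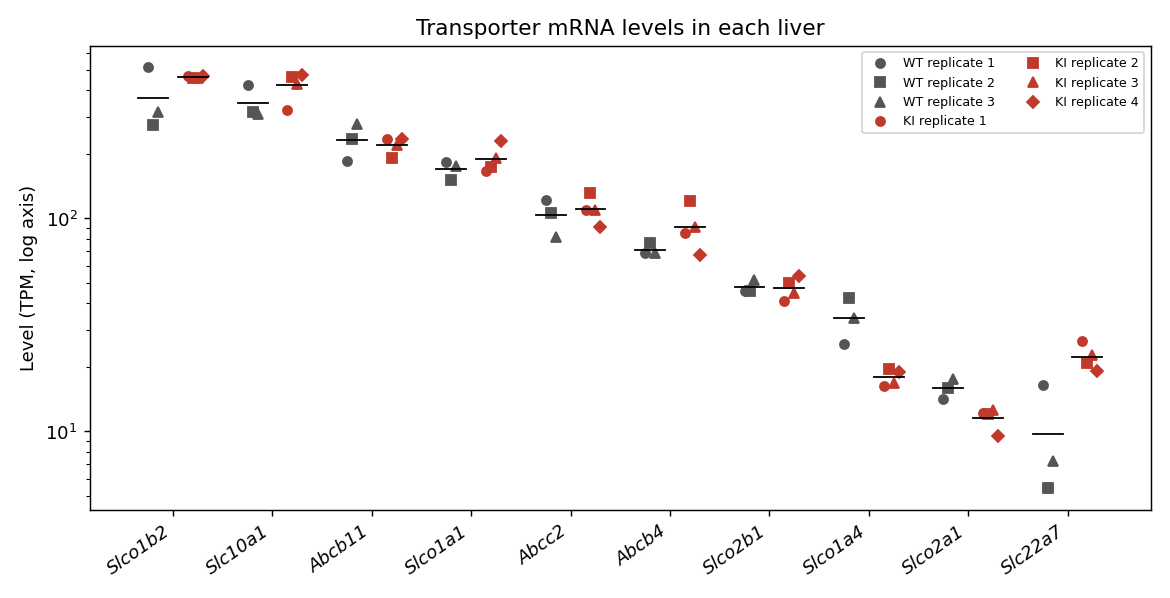
Deposited TPM (log axis) of the 10 transporters in each library, ordered by the WT mean, with WT in grey, KI in red and black lines at the means. Slco1b2 and Slc10a1 are highest in both genotypes. The mean of Slc22a7 is below that of Slco1a4 in WT and above it in KI, where the ranges of the pair overlap.

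Uptake set against export did not separate the genotypes. The summed TPM of Slco1a1, Slco1a4, Slco1b2, Slco2b1, Slc10a1 and Slc22a7 was 1210, 837 and 894 in WT replicates 1 to 3 and 1041, 1184, 1158 and 1258 in KI replicates 1 to 4. For Abcb11, Abcb4 and Abcc2 the sum was 377, 420 and 429 in WT and 431, 445, 422 and 396 in KI. The ratio of uptake to export was 3.21, 1.99 and 2.09 in WT replicates 1 to 3 and 2.42, 2.66, 2.74 and 3.18 in KI replicates 1 to 4. WT replicate 1 had the highest ratio and the other WT libraries the lowest, so that the means, 2.43 ± 0.675 in WT (SD, n = 3) and 2.75 ± 0.316 in KI (SD, n = 4), differed by less than the WT spread. The log2 ratio differed by 0.21 between genotypes, by 0.42 without WT replicate 1 and by 0.08 without WT replicate 2.

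Promoter sequence is shown for 4 of the uptake carriers, Slco1a4 and Slco1a1 because the paralogs differed and Slco1b2 and Slc10a1 because both were low in WT replicates 2 and 3. Each is the 250 bases before the RefSeq start on GRCm38.p6, read on the gene's strand. Capitals mark matches, on either strand, to GTTAAT (a half-site of HNF1), AGGTCA (a nuclear receptor half-site), TTCNNNGAA (a STAT5 site) or TATAAA (a core promoter box), none of which overlapped another.
Slco1a4, chr6:141856221-141856470, minus strand: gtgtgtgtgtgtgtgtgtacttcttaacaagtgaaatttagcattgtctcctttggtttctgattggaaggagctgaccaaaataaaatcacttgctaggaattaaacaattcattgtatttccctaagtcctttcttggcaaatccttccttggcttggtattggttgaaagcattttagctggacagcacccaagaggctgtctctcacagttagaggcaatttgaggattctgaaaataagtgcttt
Slco1a1, chr6:141946963-141947212, minus strand: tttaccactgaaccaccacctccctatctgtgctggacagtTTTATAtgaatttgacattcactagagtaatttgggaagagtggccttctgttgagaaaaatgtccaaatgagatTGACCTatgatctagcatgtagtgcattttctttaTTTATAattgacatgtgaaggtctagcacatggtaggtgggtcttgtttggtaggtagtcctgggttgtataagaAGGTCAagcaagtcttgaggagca
Slco1b2, chr6:141629268-141629517, plus strand: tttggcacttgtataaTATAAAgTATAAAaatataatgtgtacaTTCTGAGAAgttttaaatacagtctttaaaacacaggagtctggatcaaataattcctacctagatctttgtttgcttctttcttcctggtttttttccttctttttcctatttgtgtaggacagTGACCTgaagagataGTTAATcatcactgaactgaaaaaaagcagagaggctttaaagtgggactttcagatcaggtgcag
Slc10a1, chr12:80968706-80968955, minus strand: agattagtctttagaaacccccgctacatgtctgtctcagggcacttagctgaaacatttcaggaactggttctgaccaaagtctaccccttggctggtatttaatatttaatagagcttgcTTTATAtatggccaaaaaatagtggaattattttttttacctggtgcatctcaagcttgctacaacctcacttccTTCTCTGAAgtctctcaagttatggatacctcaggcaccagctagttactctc
The Slco1a4 window held 0 matches, and the windows of Slco1a1, Slco1b2 and Slc10a1 held 4, 5 and 2. Among all 32851 windows of this length, 6.43% held GTTAAT, 14.0% AGGTCA, 7.02% TTCNNNGAA and 12.4% TATAAA. A match here describes the letters only, and no binding was measured.

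Other genes of hepatic transport and its control, apart from the 10 transporters, were grouped in lists and tested gene by gene in the fit over all genes. Of 109 such genes 92 were tested, and edgeR's quasi-likelihood test called 0 higher and 0 lower at an adjusted p under 0.05. Of all genes it called 0.0357%, or 0.0286% higher and 0.00715% lower. At an unadjusted p under 0.05 there were 14 of 92, or 15.2%, 9 higher and 5 lower, against 10.6% of all genes. DESeq2 called 4 of them, Abcg2 and Slc22a3 higher and Cyp2b10 and Cyp39a1 lower, where it called 1.59% of all genes, 1.03% higher and 0.558% lower. Of the 92, limma-voom called 0, against 0.05% of all genes, 0.0357% higher and 0.0143% lower. Without WT replicate 1 edgeR called 2, Abcg2 and the retinaldehyde dehydrogenase Aldh1a1, both higher, and 0.691% of all genes, 0.451% higher and 0.24% lower. The lists' genes had a median log2 difference of 0.04.

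Further carriers of the Slco, Slc10 and Slc22 families were mostly near the detection limit. Of 24, 13 were filtered out for low counts, and of the 11 tested 8 had positive and 3 negative differences. Slco3a1, a widely expressed carrier of the Slco family, had 2.66 ± 0.222 CPM in WT and 3.69 ± 0.277 CPM in KI, with no overlap (edgeR adjusted p = 0.321). Slc22a29 had 0.282 ± 0.0313 CPM in WT and 0.502 ± 0.117 CPM in KI (edgeR adjusted p = 0.403). Slc10a2, the sodium-dependent bile acid carrier of ileum and bile duct, had 21.1, 45.2 and 78.0 CPM in WT replicates 1 to 3 and 19.2 to 33.3 CPM in KI (edgeR adjusted p = 0.496). The 8 cholangiocyte markers summed to 42.9 to 49.6 CPM in WT and 38.9 to 51.7 CPM in KI. Among the 5 organic cation and carnitine carriers tested all had positive differences. Slc22a3, a low-affinity cation carrier, had 2.62, 1.52 and 1.58 CPM in WT replicates 1 to 3 and 4.44, 5.85, 2.89 and 3.01 CPM in KI replicates 1 to 4 (log2 difference 1.08; edgeR adjusted p = 0.315, DESeq2 adjusted p = 0.0440). Slc22a4, an ergothioneine carrier, had a log2 difference of 0.41 (edgeR adjusted p = 0.730).

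Exporters outside the 10 differed in both directions without passing edgeR. Abcg2, a canalicular pump for sulfated conjugates, had 67.9, 40.2 and 39.7 CPM in WT replicates 1 to 3 and 79.9, 79.4, 82.6 and 72.2 CPM in KI replicates 1 to 4. No KI library overlapped WT, with a log2 difference of 0.67 and an SE of 0.18 (edgeR adjusted p = 0.290, DESeq2 adjusted p = 0.0422). Abcg5 and Abcg8, the partner subunits of the sterol exporter, had log2 differences of -0.62 and -0.59, again without overlap (edgeR adjusted p = 0.364 and 0.368). Of the 7 basolateral exporters tested, Abcc6 had 129 ± 1.70 CPM in WT and 117 ± 6.85 CPM in KI (edgeR adjusted p = 0.527), and Abcc3, the basolateral pump for glucuronides, had 194 ± 37.5 and 210 ± 28.7 CPM (edgeR adjusted p = 0.814). Slc51b, a subunit of the basolateral bile acid exporter, was at 0.157 to 0.520 CPM, and its partner Slc51a had 0 counts in all 7 libraries. Of the 9 scaffold and trafficking genes tested, Vps33b, which is needed to deliver canalicular proteins, had a log2 difference of 0.31, Myo5b 0.26 and Rab11a -0.13 (edgeR adjusted p = 0.418, 0.494 and 0.584).

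Transcription factors of transporter genes, and targets of the xenobiotic receptors, had log2 differences of both signs. Among 21 transcription factors 11 had positive and 10 negative differences, with a median of 0.01, and 0 had an unadjusted edgeR p under 0.05. Nr1i2, which encodes PXR, had 65.2, 69.2 and 85.1 CPM in WT replicates 1 to 3 and 57.8 to 69.1 CPM in KI (log2 difference -0.23, SE 0.11; edgeR adjusted p = 0.487). Rxra, its dimer partner, and the repressor Bcl6 had 0.17 and -0.52 (edgeR adjusted p = 0.655 for both). Of 20 targets of PXR and of the related receptor CAR, 11 had positive and 9 negative differences. Cyp2b10, the classical CAR target, had 8.03, 5.94 and 8.21 CPM in WT replicates 1 to 3 and 2.52, 3.67, 2.46 and 4.83 CPM in KI replicates 1 to 4, a log2 difference of -1.13 (edgeR adjusted p = 0.236, DESeq2 adjusted p = 0.00352). Ces2a had -0.31 and Aldh1a7 0.41 (edgeR adjusted p = 0.347 and 0.313), both without overlap. Cyp3a11, the classical PXR target, chosen after its values were seen, had -0.04 (edgeR adjusted p = 0.948). Of 12 genes of bile acid synthesis and conjugation 8 had positive differences. Cyp8b1, the sterol 12-alpha-hydroxylase, had 81.6 ± 19.0 CPM in WT and 139.8 ± 46.7 CPM in KI, Cyp7b1 had 239 ± 19.2 and 349 ± 110.2 CPM, and Cyp39a1 had 32.1 ± 9.19 and 16.3 ± 5.62 CPM (edgeR adjusted p = 0.346, 0.418 and 0.296; DESeq2 adjusted p of Cyp39a1 = 0.0322).

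**Figure D5:**
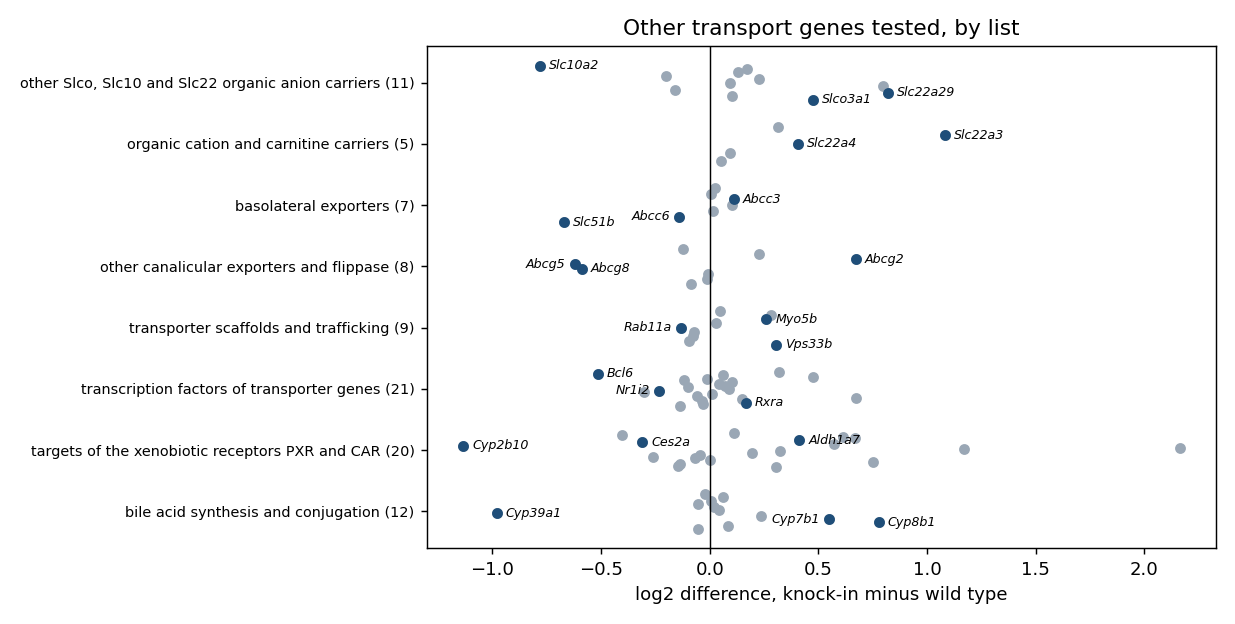
log2 difference (KI minus WT, x axis) of the tested genes of each list (y axis, with the number tested); dark, labelled points are among the 3 genes of smallest p in their list. No gene passed edgeR's adjusted threshold, and genes lie on both sides of 0 in all lists but the cation and carnitine carriers.

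Genes with a profile most like that of Slco1a4 were found among 8736 genes averaging 5 CPM or more. The measure was the root mean square difference between log2 CPM profiles over the 7 libraries, after subtracting the mean of each gene. The 5 nearest were Steap2, a metalloreductase (0.13), Plekhf1, a lysosomal and endosomal adaptor (0.18), Fam134b, a receptor for turnover of the endoplasmic reticulum (0.18), Acsl3, a long-chain acyl-CoA synthetase (0.21), and Marco, a macrophage scavenger receptor (0.21), where the median gene was at 0.49. Their log2 differences between genotypes ran from -1.01 to -0.59. Of the other transporters Slco2a1 was the nearest at 0.32, with 1.71% of the ranked genes closer, whereas Slco1b2 and Slc22a7 stood at 0.78 and 1.30. The points share 7 libraries and the genotype difference by which Slco1a4 was chosen, so the ranking is a description.

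The 7 libraries held 36928472 to 46755357 total counts. The tissue label fits its markers, as 9 hepatocyte genes summed to 78040 to 106505 CPM, and the 6 kidney proximal tubule markers, added because kidney shares many of these carriers, summed to 0.405 to 1.90 CPM with Kap at 0.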

How the data were processed

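Poly(A)-enriched RNA of 7 mouse liver samples was sequenced, per the labels' protocols. The genome build was mm10, according to the submitters' processing notes. How reads were mapped, counted and annotated was not stated there or in the labels. The total counts per gene are whole numbers deposited by the authors without normalization. The TPM values, also deposited by the authors, were used only to compare levels between genes. The other 14 columns of these libraries, CPM and RPKM, were not used. Groups came from the labels. The labels do not state that each library is a separate animal, so p-values measure only the spread between these samples, which may be technical.

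Counts were fitted with edgeR 4.0.16 (R 4.3.3; TMM scaling, default filter, quasi-likelihood test, genotype as the only term), and adjusted by Benjamini-Hochberg over all 13989 genes tested, with 0.05 as the threshold. Alternatives were DESeq2 1.42.0, limma-voom 3.58.1, RLE scaling, no expression filter, a CPM filter, a replicate block and leaving out each library. Scripts were tested on simulated data. The transporters and lists were chosen with earlier results of these data known. For the 10 transporters the genotype difference was not tested. Named genes are the 10 transporters, the 3 genes of smallest p in each list (1 is not reported here), and the 5 genes most like Slco1a4 with no clone or pseudogene name. Coding sequences came from GENCODE release M21 transcripts and were aligned with Biopython 1.88. Of the 10 transporters 9 had a RefSeq promoter entry, all but Slc22a7. Total counts give each library its depth. By a chi-square comparison of counts, no pair of libraries within a genotype looked like a duplicate.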

Additional observations from a re-analysis of the deposited data

How the results depend on the processing

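Of 130 values of the 10 transporters' log2 differences under 13 alternatives, 128 moved by less than 1 SD between replicates. The others were Slco1b2 and Slc22a7 without WT replicate 1. Signs changed in 6 values, all of Slco2b1, Abcb11 or Abcc2, whose differences lay near 0. Slco1a4 ranged from -1.03 to -0.72 when 1 library was left out. With 1 library left out, the log2 ratio difference ranged from 0.08 to 0.42 for uptake over export, and from 0.80 to 1.29 for Slco1a1 over Slco1a4. With all 7 libraries, uptake over export differed by 0.187 as a ratio of CPM and by 0.137 without Slco1b2. Taken between means of log2 TPM it differed by 0.0747. Between 3 and 5 transporters had ranges that did not overlap, an alternative chosen after seeing the data. Such ranges were found in 10.9% of all genes with all 7 libraries and in 14.6% to 26.1% when 1 was left out. Among all genes 5 were called by edgeR, against 222 by DESeq2, 18 without an expression filter, and 3 to 98 when 1 library was left out, the most without WT replicate 1. Of the 92 other transport genes 0 were called, against 4 by DESeq2 and 0 to 2 when 1 library was left out. The causes of these shifts were not tested. Same-numbered libraries did not deviate together (r = -0.06, 0.01 and -0.02). Differently numbered pairs ran from -0.24 to 0.26, so these few values cannot show whether the replicate numbers pair the samples. With the replicate block 1 gene was called.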

Other observations

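Within the libraries, the ratio of Slco1b2 to Slco1a4 in TPM was 19.9, 6.50 and 9.25 in WT replicates 1 to 3 and 28.7, 23.1, 27.1 and 24.5 in KI replicates 1 to 4, so that the KI livers lay above all WT livers and WT replicate 1 lay between the groups. The ratio of the bile salt pump Abcb11 to the phospholipid pump Abcb4 was 2.70, 3.11 and 4.05 in WT and 2.73, 1.60, 2.44 and 3.51 in KI, with overlap. The ratio of bile acid uptake by Slc10a1 to export by Abcb11, read as TPM of the 2 genes, was 2.28, 1.34 and 1.11 in WT and 1.38, 2.41, 1.92 and 1.98 in KI, and overlapped as well.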
